A study of Homo sapiens with 16 samples.

Results

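Dihydrotestosterone (DHT), the most potent natural androgen, and enzalutamide, a drug that blocks the androgen receptor, were given alone and together to VCaP cells, and the subject here is how far the response to both departed from the sum of the 2 single responses. VCaP is a line of human prostate cancer cells in which the TMPRSS2 promoter is fused to the oncogene ERG. The cells called Vc had been kept for 4 months in ethanol, were starved of steroids for 48 h or more (charcoal-stripped serum, no phenol red), and were then treated for 24 h with control medium, 1 nM DHT, 1 µM enzalutamide, or 1 nM DHT plus 1 µM enzalutamide (the combination). Each of these 4 groups has 2 libraries of polyA RNA, so the comparison rests on 8 of the 16 libraries of the series. The other 8 come from Ver, VCaP cells that had spent those 4 months in 1 µM enzalutamide and were then given the same 4 treatments. The members were all genes that could be tested, 22553 of the 58302 genes in the files. For each gene the interaction was computed as the log2 effect of enzalutamide with DHT minus that without DHT, which equals the log2 effect of DHT with enzalutamide minus that without it. An interaction of 0 means that the fold changes multiply. Calls were made at an adjusted p under 0.05 (Benjamini-Hochberg).

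The androgen receptor is a transcription factor of the nuclear receptor family. Bound by DHT it enters the nucleus and acts at response elements in enhancers and promoters, raising genes of secretion, lipid synthesis and prostate differentiation and lowering others. Enzalutamide competes with DHT for the ligand pocket and hinders nuclear entry and DNA binding. In VCaP cells, where the receptor is abundant, growth and many genes depend on the hormone dose.

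The libraries held luminal epithelial markers at high levels and separated first by DHT. The Vc libraries held 10729292 to 13273523 counts in genes. Luminal epithelial markers summed to 3990 to 5389 CPM (counts scaled to library size), stromal and endothelial markers to 22.1 to 42.7 CPM and immune markers to 6.02 to 8.96 CPM. For single genes CPM is edgeR's unit, with library sizes adjusted by its normalization factors. Sums of markers were scaled to the counts in tested genes without these factors. The first principal component of the 8 libraries held 58.4% of the variance and followed DHT. The second held 9.73% and set both combination libraries (36.1 and 38.3) apart from the other 6 (-28.2 to -0.922), and the third, with 7.08%, separated the DHT libraries from each other (41.2 and -35.1). The share of counted reads in no gene was 50.1 and 50.6% in control, 47.1 and 46.9% with DHT, 50.4 and 50.4% with enzalutamide and 48.6 and 47.97% with the combination, and its part in the results was not tested. The labels do not say that the libraries of a group are separate cultures, so p-values measure the spread between libraries, which may be technical. The work is bulk RNA from 1 line at 1 dose of each compound, and less RNA per cell cannot be told apart from fewer cells of a kind.

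Enzalutamide alone changed few genes, but it changed the response to DHT at many. Against control, DHT raised 4917 genes (21.8% of those tested) and lowered 5070 (22.5%), while enzalutamide raised 35 and lowered 86. The interaction was called for 3147 genes: it was higher than 0 for 1698 (7.53%) and lower than 0 for 1449 (6.42%). It reached 2-fold for 552 of the former and 247 of the latter. In 2353 of the 3147 genes (74.8%) the mean of the combination lay between those of DHT and of enzalutamide, against 59.0% of all genes tested. It lay above both in 477 (15.2%, against 20.7% of all tested) and below both in 317 (10.1%, against 20.3%). The libraries that gave the calls also gave these positions, so nothing is read from the difference between the shares. The median interaction over all genes tested was 0.022 on the log2 scale.

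**Figure D1:**
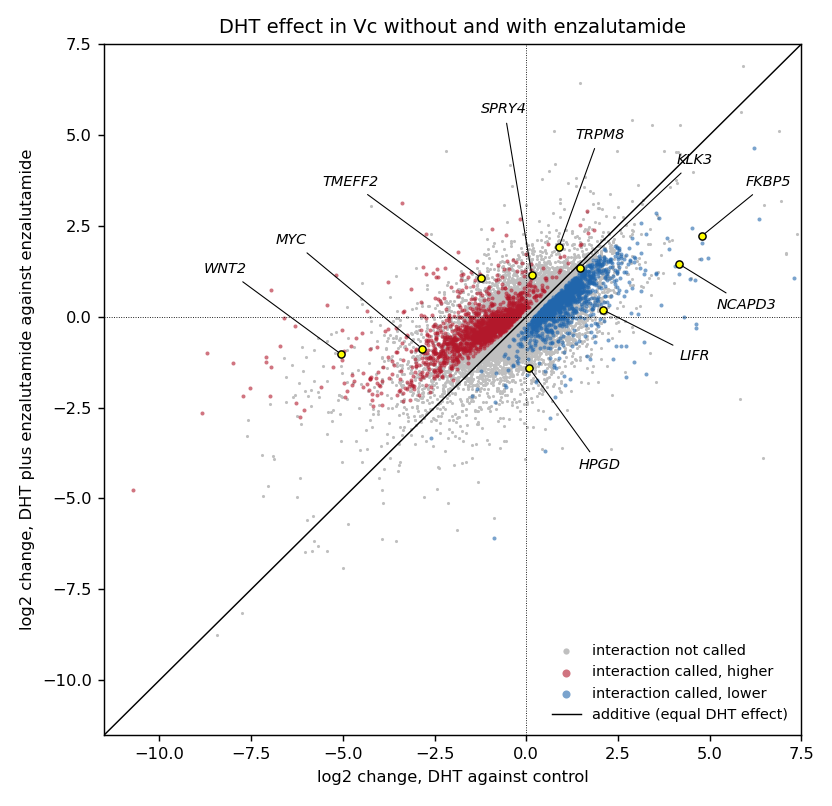
Each point is 1 of the tested genes in Vc: the x axis is the log2 change with DHT against control, the y axis the log2 change with DHT plus enzalutamide against enzalutamide, and colours mark the 1698 genes with a called interaction above 0 and the 1449 below 0. Points on the diagonal responded equally to DHT with and without the drug, and the distance from it is the interaction: FKBP5, NCAPD3 and LIFR lie below it, MYC and WNT2 above it on the side of genes lowered by DHT, TMEFF2 fell with DHT alone and rose with DHT in the presence of the drug, and HPGD fell with DHT only in its presence.

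Additivity depends on the scale. Tested on the CPM scale, where additive means that amounts add, 2889 genes were called, 1130 higher and 1759 lower, in place of 1698 and 1449 on the log2 scale. The CPM-scale calls came from a t test on the fitted group means and the log2 calls from an F test. The test thus changed with the scale. Of these, 2531 were called on both scales, with opposite signs in 1, NOV. All interactions below are on the log2 scale.

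Among the profiles described, 3 shapes are shown with 1 promoter each to set the sequence beside the response. FKBP5 stands for genes whose induction was reduced (chr6:35728534-35728833, minus strand), TMEFF2 for genes above both single treatments (chr2:192194884-192195183, minus strand) and HPGD for genes below both (chr4:174522439-174522738, minus strand). The windows run from 250 bases before to 50 after the RefSeq start on GRCh38.p14, and capitals mark the androgen response half-site TGTTCT on either strand (AGAACA on the other).
FKBP5: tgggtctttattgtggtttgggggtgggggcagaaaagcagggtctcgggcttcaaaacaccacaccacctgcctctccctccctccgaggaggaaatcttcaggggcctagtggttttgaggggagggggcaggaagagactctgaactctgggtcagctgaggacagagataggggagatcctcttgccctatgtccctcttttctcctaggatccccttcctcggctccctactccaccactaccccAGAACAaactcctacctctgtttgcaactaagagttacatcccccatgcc
TMEFF2: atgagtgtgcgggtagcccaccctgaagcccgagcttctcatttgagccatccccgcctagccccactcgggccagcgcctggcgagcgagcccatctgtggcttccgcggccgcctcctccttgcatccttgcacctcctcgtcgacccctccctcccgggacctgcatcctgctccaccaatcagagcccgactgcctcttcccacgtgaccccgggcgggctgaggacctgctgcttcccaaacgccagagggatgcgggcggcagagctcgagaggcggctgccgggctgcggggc
HPGD: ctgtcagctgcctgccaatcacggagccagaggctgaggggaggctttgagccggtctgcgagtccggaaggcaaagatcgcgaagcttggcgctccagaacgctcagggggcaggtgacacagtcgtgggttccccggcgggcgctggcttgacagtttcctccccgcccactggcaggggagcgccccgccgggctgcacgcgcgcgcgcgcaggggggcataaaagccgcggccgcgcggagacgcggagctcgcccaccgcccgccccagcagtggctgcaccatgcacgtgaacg
The FKBP5 window holds 1 half-site, which begins at the start site, and those of TMEFF2 and HPGD hold none. The half-site occurs in 14.8% of the 35116 promoters in the table and in 9.57% of the 11864 matched to tested genes. It occurs in 7.14% of the 1107 matched genes with an interaction below 0, 8.4% of the 1202 above 0, 5.8% of the 138 above both single treatments and 7.61% of the 92 below both. These are matches of letters in a short window, and most androgen receptor sites known in prostate cells lie in distant enhancers.

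Among called genes with a mean of at least 5 CPM in Vc, the 10 most negative interactions were all in genes that DHT raised. The interaction subtracts the DHT effect, so the same libraries enter both, and nothing is read from this shared direction. FKBP5, a co-chaperone of steroid receptors on chromosome 6 of GRCh38 (35573585 to 35728583), had 64.7 and 63.1 CPM in control, 1761 and 1784 with DHT, 51.2 and 51.6 with enzalutamide and 228 and 253 with the combination. The DHT libraries lay far above all others, the combination came next, and control and enzalutamide were close together. The interaction was -2.57 (SE 0.11, adjusted p = 1.5e-17). NCAPD3, a subunit of the condensin II complex on chromosome 11 (134150119 to 134225454), had 91.5 and 85.6 CPM in control, 1550.5 and 1627 with DHT, 84.5 and 88.3 with enzalutamide and 226 and 245 with the combination. Its groups showed the same pattern, with an interaction of -2.72 (SE 0.12, adjusted p = 1.2e-12). SNORA40, a small nucleolar RNA inside FKBP5 on the other strand, and JAM3, which overlaps NCAPD3 on the other strand, had interactions of -2.98 and -2.22. Counting did not use strand, so where they overlap their reads cannot be told apart from those of FKBP5 and NCAPD3.

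Several induced genes came back close to the level with enzalutamide alone. LIFR, the receptor subunit for leukaemia inhibitory factor, had 97.1 and 98.5 CPM in control, 402 and 431 with DHT, 104 and 106 with enzalutamide and 119 and 120.0 with the combination. Only the DHT libraries were high, the DHT effect with enzalutamide was 0.19 (SE 0.062, adjusted p = 0.013), and the interaction was -1.904 (SE 0.085, adjusted p = 1.4e-44). GLIS3, a zinc finger transcription factor, had 4.08 and 2.38 CPM in control, 23.6 and 23.8 with DHT, 4.15 and 2.91 with enzalutamide and 3.69 and 3.96 with the combination. Its DHT effect with enzalutamide was 0.11 (SE 0.25, adjusted p = 0.80), with an interaction of -2.75 (SE 0.33, adjusted p = 3.2e-12). ELMO1, a regulator of Rac signalling and cell movement, had 0.770 and 1.61 CPM in control, 14.04 and 16.3 with DHT, 2.40 and 1.68 with enzalutamide and 2.09 and 3.08 with the combination. Again DHT alone was far above the rest. The DHT effect of ELMO1 with enzalutamide was 0.32 (SE 0.32, adjusted p = 0.50) and its interaction -3.35 (SE 0.45, adjusted p = 3.0e-10). Against control the combination was still higher for ELMO1, by 1.12 (SE 0.36, adjusted p = 0.0076), and for LIFR, by 0.29 (SE 0.062, adjusted p = 5.7e-05).

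MUM1L1 went further, since its mean with the combination was lower than in every other group. It had 10.1 and 9.69 CPM in control, 45.5 and 48.1 with DHT, 10.1 and 10.3 with enzalutamide and 7.38 and 5.55 with the combination, and the DHT effect turned from 2.24 to -0.65 (SE 0.18, adjusted p = 0.0019) with enzalutamide. The interaction was -2.89 (SE 0.23, adjusted p = 2.3e-22). Its call below both single treatments was lost without replicate 2 of the combination (distance -0.47 from the nearer single treatment, adjusted p = 0.10). ADGRG2, an adhesion receptor gene, IL20RA, a subunit of the interleukin 20 receptor, and GALNT17, of the family that starts O-linked glycosylation, kept part of their induction, with interactions of -2.01, -2.38 and -1.999. For NDRG1, a stress-responsive gene induced by androgens, the value was -1.05. The call for each of these 4 genes held under every alternative tried.

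TMPRSS2 and ERG, joined by the gene fusion of this line, both had a called interaction below 0. TMPRSS2, a membrane protease gene on chromosome 21 (41464551 to 41531116), had 211 and 226 CPM in control, 794 and 803 with DHT, 163 and 176 with enzalutamide and 346 and 358 with the combination. The groups did not overlap, and the interaction was -0.82 (SE 0.077, adjusted p = 3.5e-17), 95% interval -0.97 to -0.66. ERG, the transcription factor gene on chromosome 21 (38380027 to 38661780), had 318 and 328 CPM in control, 923 and 908 with DHT, 237 and 235 with enzalutamide and 556 and 555 with the combination. Its groups stood in the same order, and its interaction was -0.27 (SE 0.072, adjusted p = 0.0040), 95% interval -0.41 to -0.12. The intervals of the 2 genes do not overlap. The difference between the genes was not tested.

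The kallikrein genes kept their DHT response. KLK3, which encodes prostate-specific antigen (chromosome 19, 50854915 to 50860764), had 27.3 and 24.8 CPM in control, 75.5 and 68.1 with DHT, 25.7 and 21 with enzalutamide and 61.3 and 57.4 with the combination. The libraries with DHT were high whether or not enzalutamide was present. The interaction was -0.12 (SE 0.14, adjusted p = 0.69), 95% interval -0.39 to 0.15, and it was 0.041 without replicate 1 of enzalutamide. KLK2, its neighbour and a related protease gene, had 2703 and 2577 CPM in control, 6196 and 5989 with DHT, 2479 and 2452 with enzalutamide and 5522 and 5334 with the combination. The interaction of KLK2 was -0.068 (SE 0.058, adjusted p = 0.54), 95% interval -0.18 to 0.046. The combination was still lower than DHT alone, with log2 differences of -0.17 for KLK2 and -0.28 for KLK3. KLK2 and KLK3 are paralogs with similar sequence, and reads may be split between them.

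Among the 4016 genes that DHT changed at least 2-fold, 172 had a 95% interval of the interaction within -0.5 to 0.5, which bounds the departure from additivity. A gene with a wide interval could not enter, whatever its interaction, so 172 is not a count of all kept responses. All 172 had a mean of at least 5 CPM in Vc. DHT raised 146 of them and lowered 26, while over all genes tested it raised 4917 and lowered 5070. A narrow interval is harder to reach at low counts, so nothing is read from the split of the 172. An interaction that was called but small was found in 48 of the 172. FAM129A, a stress-induced gene, had 20.3 and 20.6 CPM in control, 133 and 135 with DHT, 13.1 and 13.5 with enzalutamide and 73.6 and 80.4 with the combination. Here enzalutamide lowered the level both with and without DHT, with log2 changes of -0.798 and -0.62, and the interval of the interaction was -0.45 to 0.097. BMPR1B, a receptor for bone morphogenetic proteins, DNAJC10, a disulfide reductase of the endoplasmic reticulum, and MBOAT2, a phospholipid acyltransferase, had intervals of -0.37 to 0.085, -0.39 to -0.063 and -0.41 to -0.092. PEG10, an imprinted gene derived from a retrotransposon, was lowered by DHT, at 361 and 373 CPM in control, 90.8 and 93.2 with DHT, 452 and 442 with enzalutamide and 139.7 and 128 with the combination. Its interval was 0.105 to 0.42.

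Genes lowered by DHT whose fall shrank with enzalutamide had positive interactions. MYC, the growth-promoting transcription factor gene on chromosome 8 (127735434 to 127741434), had 372 and 384 CPM in control, 51.3 and 54.2 with DHT, 379 and 378 with enzalutamide and 204 and 208 with the combination. DHT alone was the low group, the combination was intermediate, and control and enzalutamide overlapped. The interaction was 1.97 (SE 0.082, adjusted p = 2.5e-48). WNT2, a secreted WNT ligand gene on chromosome 7 (117275451 to 117323289), had 59.4 and 64.7 CPM in control, 2.55 and 1.02 with DHT, 55.1 and 54.6 with enzalutamide and 25.2 and 28.7 with the combination. The order was that of MYC with a deeper fall, and the interaction was 4.02 (SE 0.25, adjusted p = 1.4e-38). UGT2B15, whose enzyme conjugates androgens for removal, had 48.97 and 41.8 CPM in control, 3.12 and 1.52 with DHT, 49.5 and 40.8 with enzalutamide and 15.3 and 13.5 with the combination. Its interaction was 2.59 (SE 0.24, adjusted p = 4.3e-20), and its reads may be shared with close paralogs.

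NOV, a matricellular growth regulator gene also named CCN3, had no count in either DHT library, against 245 and 230 in control, 337 and 318 with enzalutamide and 10 and 14 with the combination. With 3 counts over the group as the floor, DHT alone was at least 139.4-fold lower than control. The combination was thus above DHT and far below both groups without DHT. The call for the interaction (adjusted p = 1.2e-04) was for a rise on the log2 scale, and on the CPM scale the interaction of NOV was -7.79 CPM.

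LUM, the matrix proteoglycan lumican and one of the stromal markers, had 14.01 and 13.5 CPM in control, 0.328 and 0.610 with DHT, 17.2 and 16.7 with enzalutamide and 4.66 and 3.44 with the combination. The DHT libraries were nearly without LUM and the combination stayed well under control, with an interaction of 2.83 (SE 0.49, adjusted p = 7.4e-09). The stromal and endothelial marker sums were 35.4 and 40.5 CPM in control, 22.1 and 27.3 with DHT, 40.9 and 42.7 with enzalutamide and 28.5 and 25.6 with the combination. LUM is itself in these sums, so its own change is part of theirs. The part of the other markers in the LUM result was not tested. MEX3A, an RNA-binding protein gene, CAMKV, a kinase-like gene, and CDCA7, a cell-cycle gene known as a MYC target, had interactions of 2.68, 3.14 and 2.66. FOLH1, which encodes prostate-specific membrane antigen, had 367 and 352 CPM in control, 46.4 and 54.9 with DHT, 398 and 386 with enzalutamide and 181 and 173 with the combination. The combination restored part of the level, with an interaction of 1.69 (SE 0.086, adjusted p = 4.4e-37). ACPP, prostatic acid phosphatase, had an interaction of 1.04 (SE 0.062, adjusted p = 1.1e-32).

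**Figure D2:**
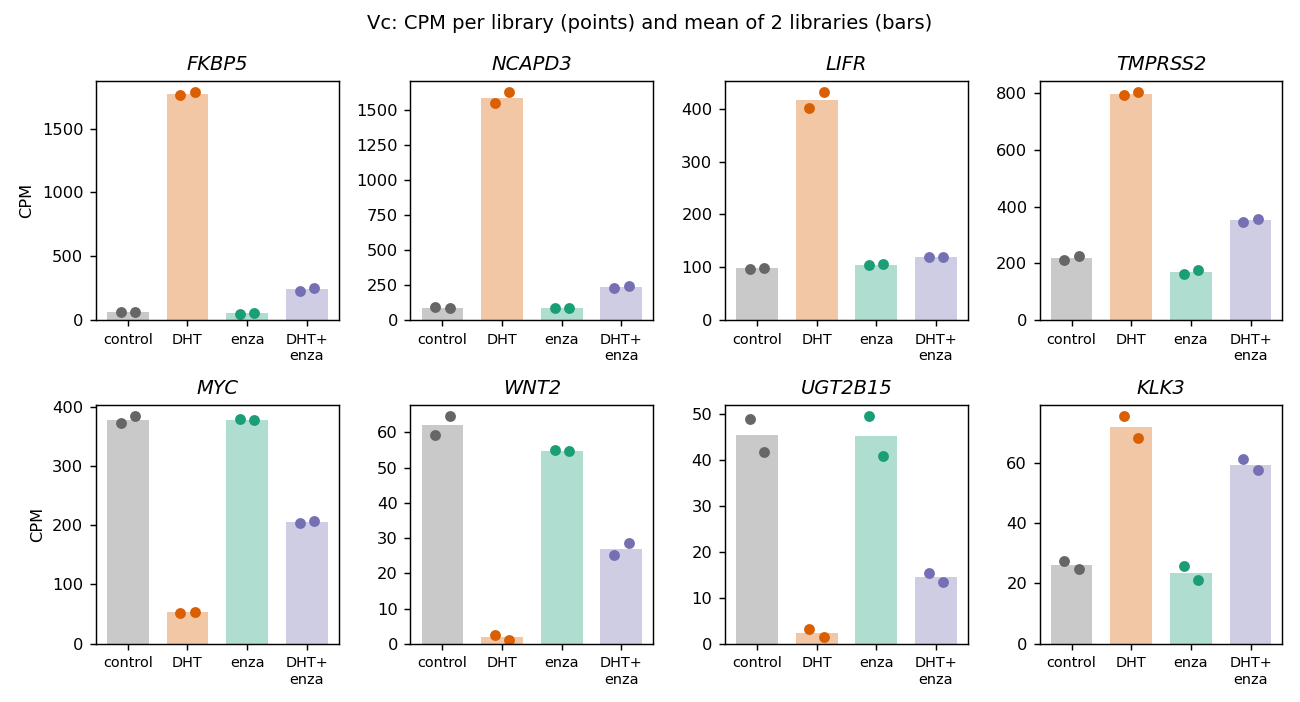
Each panel gives 1 gene in Vc: the x axis has the 4 groups (enza is enzalutamide), the y axis CPM from 0, points are the 2 libraries and bars their mean. With DHT plus enzalutamide, FKBP5, NCAPD3, LIFR and TMPRSS2 sit below DHT alone, MYC, WNT2 and UGT2B15 sit between DHT and the groups without DHT, and KLK3 stays near its DHT level (61.3 and 57.4 against 75.5 and 68.1 CPM).

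In 311 genes the combination lay outside the range of the single treatments, that is, it differed from DHT and from enzalutamide, both called and in the same direction. It was above both in 177 genes (0.785% of those tested) and below both in 134 (0.594%). It also differed in that direction from control in 113 and 81 of them, against 3451 higher and 2967 lower among all genes tested. The interaction was itself called in 138 of the 177 and 105 of the 134, against 3147 of the 22553 tested. The combination libraries enter all these calls, so nothing is read from these counts. The distance to the nearer single treatment was small in most, with a median of 0.36 and -0.50 on the log2 scale, and reached 2-fold in 22 and 27 genes. Of the 177 and the 134 genes, 91.0% and 85.8% were protein coding, against 63.5% of all genes tested. These shares were not matched for expression level. A mean of at least 5 CPM in Vc was reached by 159 of the 177 and 105 of the 134, against 12383 of the 22553 tested. The adjusted p given for a distance is the larger of the pair.

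The following genes were above both single treatments. TMEFF2, a transmembrane protein gene of prostate and brain, had 101 and 114 CPM in control, 45.3 and 46.2 with DHT, 72.2 and 74.7 with enzalutamide and 149 and 159 with the combination. DHT and enzalutamide each lowered it alone, with log2 changes of -1.23 and -0.55, and the combination was above even the control libraries. The distance to the nearer single treatment was 1.07 (adjusted p = 2.7e-32), and the interaction 2.298 (SE 0.098, adjusted p = 1.8e-47). AC098617.1, annotated antisense to TMEFF2, had the same order of groups, and its reads cannot be told apart from those of TMEFF2 where they overlap. INSM1, a zinc finger factor of neuroendocrine cells on chromosome 20 (20368121 to 20370949), had 14.01 and 20.4 CPM in control, 15.4 and 17.9 with DHT, 16 and 14.9 with enzalutamide and 35.3 and 38.9 with the combination. The 3 other groups overlapped, and only the combination was high, at a distance of 1.16 (adjusted p = 6.7e-13). SPRY4, a feedback inhibitor of receptor tyrosine kinase signalling on chromosome 5 (142310427 to 142326455), had 28.03 and 32.6 CPM in control, 33.3 and 34.04 with DHT, 38.6 and 39.7 with enzalutamide and 84.03 and 90.1 with the combination. Both combination libraries were above all others, at a distance of 1.15 (adjusted p = 3.7e-21) and with an interaction of 1.001 (SE 0.15, adjusted p = 1.2e-08).

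KCNN2, a calcium-activated potassium channel gene, had 19.5 and 22.9 CPM in control, 20.04 and 19.1 with DHT, 17.2 and 12.9 with enzalutamide and 42.3 and 41.5 with the combination. The groups other than the combination overlapped or lay close together. The distance was 1.096 (adjusted p = 2.1e-12). DNAH8, an axonemal dynein heavy chain gene, had 5.77 and 6.63 CPM in control, 10.02 and 8.54 with DHT, 6.55 and 4.85 with enzalutamide and 24.5 and 21.2 with the combination, with a distance of 1.29 (adjusted p = 5.4e-10). RORB, an orphan nuclear receptor gene, had a distance of 1.01 (adjusted p = 0.0016). PRUNE2, in which the prostate antisense transcript PCA3 lies on the other strand, had 1028 and 989.5 CPM in control, 733 and 713 with DHT, 795 and 847 with enzalutamide and 1233 and 1205 with the combination. Its combination libraries were above all others, at a distance of 0.57 (adjusted p = 6.2e-21), and where they overlap reads of PRUNE2 and PCA3 cannot be told apart.

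Some classical androgen-induced genes were higher with both compounds than with DHT alone. TRPM8, a cold-sensing ion channel gene, had 90.3 and 90.2 CPM in control, 170.0 and 163 with DHT, 63.6 and 69.5 with enzalutamide and 244 and 254 with the combination. DHT raised it, enzalutamide alone lowered it (log2 change -0.44), and the combination exceeded DHT at a distance of 0.58 (adjusted p = 4.6e-14). STEAP1, a prostate membrane antigen of the metalloreductase family, had 218 and 210.4 CPM in control, 222 and 214 with DHT, 176 and 167 with enzalutamide and 306 and 314 with the combination. The DHT and control libraries overlapped, and only the combination was higher, at a distance of 0.51 (adjusted p = 5.5e-15). SLC45A3, the sugar transporter family gene known as prostein, had 491 and 527 CPM in control, 1624 and 1620.4 with DHT, 366 and 379 with enzalutamide and 1776 and 1891 with the combination. Its distance was 0.18 (adjusted p = 0.0020), and the call was lost without replicate 2 of the combination (0.13, adjusted p = 0.13). STEAP2, the neighbouring family member, had a distance of 0.12 (adjusted p = 0.024), lost with DESeq2-type size factors (0.10, adjusted p = 0.075), without replicate 1 of DHT (0.093) and without either combination library (0.13 and 0.11). The DHT effect with enzalutamide was 1.904 (SE 0.069, adjusted p = 6.3e-57) for TRPM8 and 2.298 (SE 0.048, adjusted p = 2.6e-84) for SLC45A3, against 0.89 and 1.67 without it.

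Below both stood HPGD, the enzyme that inactivates prostaglandins, with 133 and 129 CPM in control, 134 and 142 with DHT, 170.3 and 162 with enzalutamide and 61.2 and 64.4 with the combination. Neither compound alone lowered it, enzalutamide alone raised it by 0.34, and both combination libraries were below all others. The distance was -1.14 (adjusted p = 7.7e-33) and the interaction -1.47 (SE 0.093, adjusted p = 1.6e-30). ITGB8, an integrin beta subunit gene that takes part in the activation of transforming growth factor beta, had 35.6 and 37.6 CPM in control, 25.3 and 26.3 with DHT, 37.97 and 40.5 with enzalutamide and 14.8 and 13.2 with the combination. DHT alone lowered it and the combination lowered it more, at a distance of -0.88 (adjusted p = 9.9e-09). EGR1, an immediate-early transcription factor gene, had 14.2 and 15.2 CPM in control, 12.1 and 10.7 with DHT, 14.8 and 15.7 with enzalutamide and 6.42 and 5.46 with the combination. Both combination libraries were below all others, at a distance of -0.94 (adjusted p = 3.8e-05).

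MOCOS, a molybdenum cofactor sulfurase gene, had 16.9 and 19.1 CPM in control, 31.7 and 34.8 with DHT, 20.1 and 18.1 with enzalutamide and 11.6 and 9.25 with the combination. DHT alone raised it, by 0.88, and DHT given with enzalutamide lowered it, with a DHT effect of -0.87 (SE 0.16, adjusted p = 1.4e-06) there. The interaction was -1.76 (SE 0.21, adjusted p = 1.0e-11) and the distance -0.87 (adjusted p = 1.4e-06). HOPX, a homeodomain-only gene, had 9.39 and 8.33 CPM in control, 6.32 and 5.39 with DHT, 8.29 and 10.5 with enzalutamide and 2.57 and 2.47 with the combination, at a distance of -1.22 (adjusted p = 8.8e-05). FMO5, of the flavin monooxygenases, had a distance of -0.96 (adjusted p = 2.1e-04), but its interaction (-1.04 (SE 0.29, adjusted p = 0.0049)) was not called without replicate 2 of the combination (-0.86, adjusted p = 0.062).

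**Figure D3:**
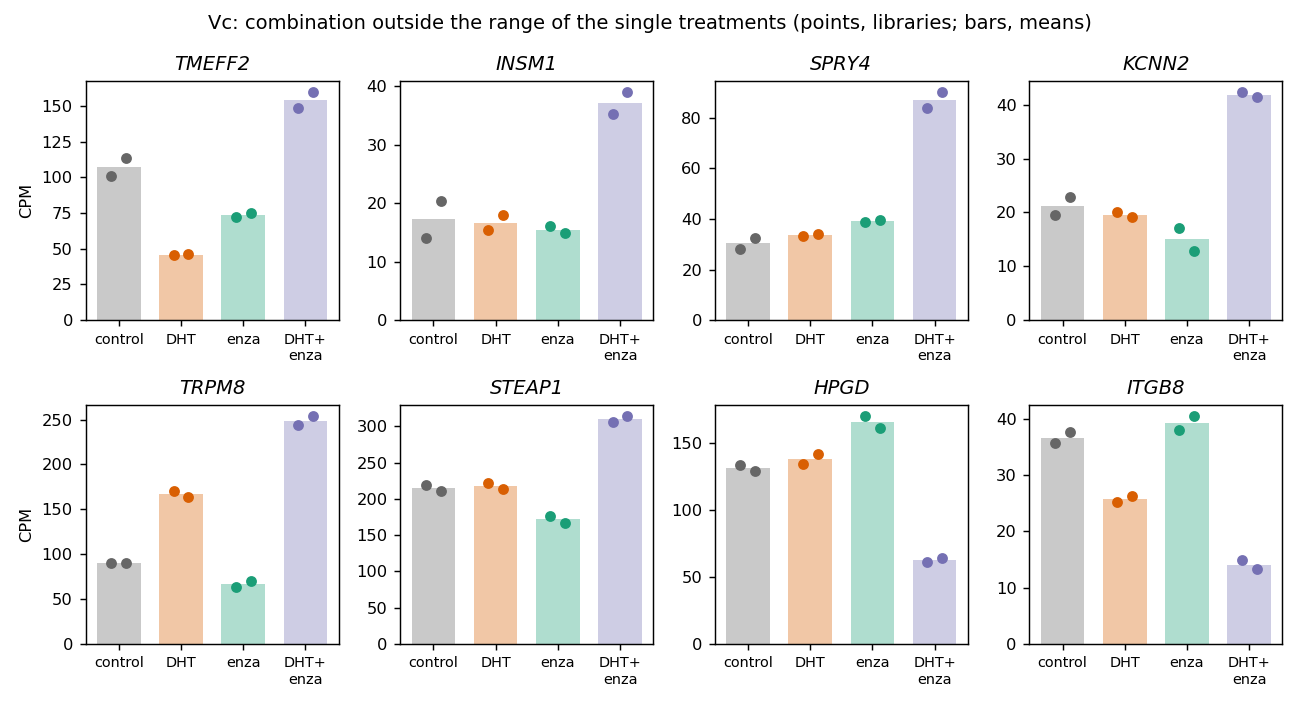
Each panel gives 1 gene in Vc: the x axis has the 4 groups (enza is enzalutamide), the y axis CPM from 0, points are the 2 libraries and bars their mean. The combination is the highest group for TMEFF2, INSM1, SPRY4, KCNN2, TRPM8 and STEAP1 and the lowest for HPGD and ITGB8, and its 2 libraries do not overlap any other group.

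The outside-range profiles were compared with Ver, whose libraries are separate. The fit shared its estimate of spread for each gene between the lines, so calls in Vc and in Ver are not independent. The shares over all genes tested were not matched for expression level. In Ver the combination was above both single treatments in 276 genes (1.22%) and below both in 183 (0.811%). Of the 177 Vc genes above both, 68 were so in Ver, which is 38.4% of the Vc list and 24.6% of the Ver list. Of the 134 below both, 46 were so in Ver (34.3% and 25.1%), and this 46 was 28 without replicate 1 of the Vc combination. None of the 177 was called below both in Ver, and 1 of the 134 was called above both. By means alone, the combination was above both in Ver for 140 of the 177 (21.7% of all genes tested) and below both for 93 of the 134 (21.5%). HPGD had 85.5 and 86.8 CPM in control, 169 and 176 with DHT, 108 and 107 with enzalutamide and 48.1 and 58.8 with the combination in Ver. The combination was again the lowest group, although DHT alone raised HPGD there. SPRY4 had 17.6 and 17.4 CPM in control, 20.1 and 16.1 with DHT, 22.2 and 21.7 with enzalutamide and 43.7 and 46.3 with the combination in Ver, again high only with the combination. INSM1 had 35.5 and 32.8 CPM in control, 22.8 and 22.5 with DHT, 36.1 and 27.7 with enzalutamide and 64.6 and 50.6 with the combination in Ver, with the combination above every other library. TMEFF2 had 187 and 203 CPM in control, 51.3 and 50.8 with DHT, 142 and 145 with enzalutamide and 163 and 175 with the combination in Ver, so that the combination was above both single treatments but below control.

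**Figure D4:**
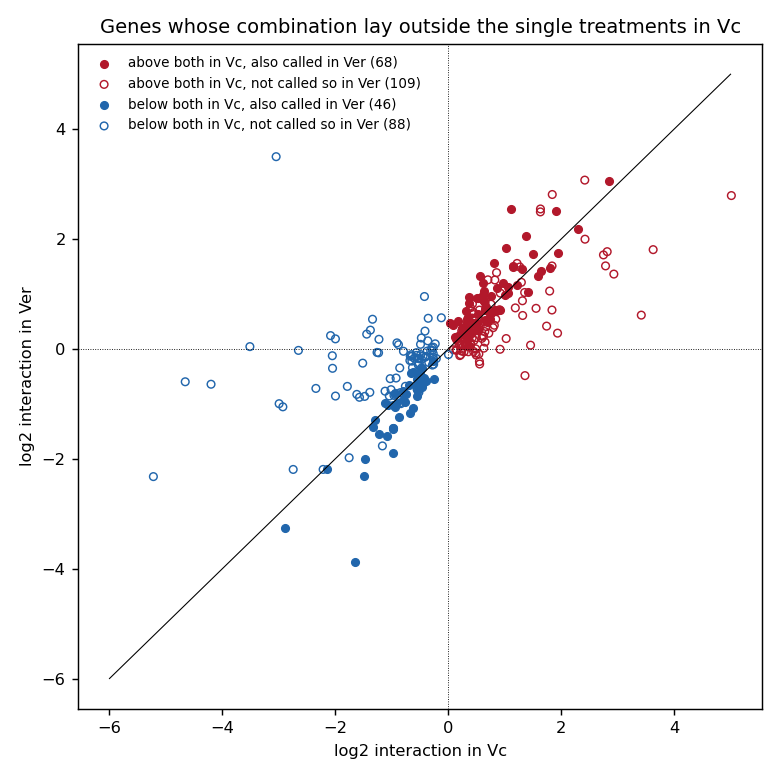
Each point is 1 of the 311 genes outside the range of the single treatments in Vc: the x axis is the log2 interaction in Vc, the y axis that in Ver, red marks the 177 above both and blue the 134 below both, and filled points (68 and 46) were called the same way in Ver. The line marks equal interactions; the x values share libraries with the choice of genes, and the y values do not.

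The interaction itself was called different between the lines in few genes, and a missed call does not mean equal interactions. The difference (Ver minus Vc) was called for 144 genes (0.638% of those tested), against 2497 at an unadjusted p under 0.05. Of the 177 genes above both 9 were among the 144 (5.08%), and of the 134 below both 4 (2.99%). The Vc libraries that chose these genes also enter the difference, so nothing is read from these shares. For FKBP5 the interaction was -3.52 in Ver and -2.57 in Vc, a difference of -0.95 (SE 0.16, adjusted p = 0.0027). With the combination, FKBP5 was at 114 and 149 CPM in Ver and at 228 and 253 in Vc. SCUBE2, which encodes a secreted protein that aids hedgehog release, had 59.4 and 56.2 CPM in control, 8.54 and 10.6 with DHT, 78.8 and 77.99 with enzalutamide and 7.30 and 8.10 with the combination in Vc and 35.9 and 37.7 CPM in control, 4.73 and 4.80 with DHT, 40.95 and 36.2 with enzalutamide and 11.4 and 6.53 with the combination in Ver. In Vc the DHT and combination libraries were all low and overlapped with none of the others, and the difference of the interactions was 1.59 (SE 0.301, adjusted p = 0.0015). ABCC3, a transporter of conjugates, had a difference of 0.91 (SE 0.16, adjusted p = 4.6e-04), and NMNAT2, an enzyme of NAD synthesis in neurons, had -2.38 (SE 0.56, adjusted p = 0.015). These 4 calls held without any 1 of the Vc libraries. Vc and Ver are 1 line each and carry different sequencing lane labels, so line and lane cannot be told apart.

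The interaction was also counted in gene lists by function, beside 7.53% of all genes higher, 6.42% lower and a median interaction of 0.022. These shares were not matched to the lists for expression level. The DHT and control libraries enter the DHT effect and, with opposite sign, the interaction. The directions of the 2 in a list are therefore linked, and nothing is read from their pairing in the lists below. Of the 22553 genes tested, 12383 had a mean of at least 5 CPM in Vc, and calls are harder to reach at low counts. Of 46 androgen-induced genes tested, DHT raised 40 and lowered 2, and the interaction was lower in 23 and higher in 7 (15.2%), with a median of -0.49. In 5 the combination was above both single treatments, including TRPM8, STEAP1, SLC45A3 and STEAP2, and in 2 it was below both, including HPGD. Of 28 androgen-repressed genes, DHT lowered 15 and raised 8, and the interaction was higher in 12 (42.9%) and lower in 5 (17.9%), with a median of 0.33. That 5 was 3 without the low-count filter, replicate 1 of DHT or of the combination, replicate 2 of control or either enzalutamide library. SI, a disaccharidase gene in this list, had an interaction of 1.37. Glucocorticoid receptor targets, which share response elements with the androgen receptor, had 11 of 17 lower (64.7%), 2 higher and a median of -0.81. That 2 was 1 without either DHT or enzalutamide library or replicate 1 of control. Besides FKBP5 these include ERRFI1, an inhibitor of the epidermal growth factor receptor, with 46.5 and 46.1 CPM in control, 221 and 235 with DHT, 45.02 and 49.7 with enzalutamide and 72.6 and 66.8 with the combination. ERRFI1 was high with DHT only, at an interaction of -1.74 (SE 0.104, adjusted p = 1.6e-32), and ZBTB16, a zinc finger repressor gene, had -0.68 (SE 0.079, adjusted p = 1.2e-12).

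DHT raised most genes of the unfolded protein response, amino acid response and cholesterol synthesis lists, and the interactions called in them were below 0. All 25 unfolded protein response genes rose with DHT, and the interaction was lower in 12 (48.0%) and higher in 0, with a median of -0.27. ERN1, the sensor kinase of that response, had 49.9 and 44.1 CPM in control, 174 and 164 with DHT, 42.9 and 43.8 with enzalutamide and 82.99 and 83.4 with the combination. The combination was midway, and the interaction was -0.904 (SE 0.11, adjusted p = 1.8e-12). SYVN1, a ubiquitin ligase of degradation from the endoplasmic reticulum, and DNAJC3, a co-chaperone there, had -0.53 and -0.74. The amino acid response genes of the factor ATF4 had 14 of 32 lower (43.8%), 0 higher and a median of -0.32. That 14 became 9 without replicate 2 of control, and 1 interaction was higher without replicate 1 of DHT or of control. SLC1A5, a glutamine transporter gene, had an interaction of -0.59 and TRIB3, a pseudokinase gene, -0.53. Of 25 cholesterol synthesis genes DHT raised 23, and 9 interactions were lower (36.0%) and 0 higher, with a median of -0.30. IDI1, of the isoprenoid pathway, had an interaction of -0.52.

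Of 17 fatty acid synthesis genes, DHT raised 13 and lowered 2, and the interaction was lower in 8 (47.1%) and higher in 1. FASN, the fatty acid synthase, had 951 and 1003 CPM in control, 3506 and 3563 with DHT, 971 and 999 with enzalutamide and 1937 and 2133 with the combination. Its combination libraries lay between DHT and the groups without it, at an interaction of -0.81 (SE 0.063, adjusted p = 1.9e-22). ACSL3, which activates long-chain fatty acids, had -1.002. The single gene on the other side was ACACB, an acetyl-CoA carboxylase gene that DHT lowered, with 0.74 (SE 0.23, adjusted p = 0.016), not called without replicate 1 of DHT (0.68, adjusted p = 0.10), replicate 1 of the combination (0.66), replicate 2 of control (0.68) or replicate 2 of enzalutamide (0.66).

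DHT lowered most genes of the nucleolar, DNA replication and mitosis lists, and the interactions called in them were above 0. Of 26 nucleolar and ribosome biogenesis genes DHT lowered 23, and the interaction was higher in 20 (76.9%) and lower in 0, with a median of 0.61. POLR1B, a subunit of RNA polymerase I, had 71.99 and 80.7 CPM in control, 35.3 and 36.8 with DHT, 68.2 and 68.1 with enzalutamide and 70.5 and 67.4 with the combination. Only DHT alone was low, the DHT effect with enzalutamide was 0.017 (SE 0.084, adjusted p = 0.91), and the interaction was 1.100 (SE 0.12, adjusted p = 2.0e-13). NPM1 and NCL, the nucleolar proteins nucleophosmin and nucleolin, had 0.704 and 0.697, and their combination levels stayed below control. Of 32 DNA replication genes DHT lowered 25, and 12 interactions were higher (37.5%) and 0 lower, with a median of 0.52. MCM4, a subunit of the replicative helicase, had 110.3 and 109.9 CPM in control, 27.2 and 27.6 with DHT, 102 and 97.5 with enzalutamide and 43.7 and 42.99 with the combination. Its combination stayed nearer to DHT, at an interaction of 0.802 (SE 0.12, adjusted p = 1.0e-08). Of 30 mitosis genes DHT lowered 22, and 4 interactions were higher (13.3%) and 0 lower, with a median of 0.30. That 4 was 2 without replicate 1 of the combination or replicate 2 of control. TTK, a spindle checkpoint kinase gene, had 1.17 (SE 0.22, adjusted p = 1.1e-05). The DHT effect of the nucleolar list with enzalutamide had a median of -0.20, against -0.77 without it, and that of the mitosis list -0.40 against -0.64.

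Cell identity genes moved in both directions. Of 20 luminal epithelial genes 10 interactions were lower and 2, FOLH1 and ACPP, higher. KRT19, a keratin gene, had 120.3 and 123 CPM in control, 338 and 346 with DHT, 121 and 116 with enzalutamide and 189 and 191 with the combination. It was high with DHT alone, at an interaction of -0.81 (SE 0.084, adjusted p = 8.1e-15). Of 16 neuroendocrine genes DHT lowered 10 and raised 2, and 6 interactions were higher (37.5%) and 0 lower (1 without replicate 2 of DHT or with the Vc libraries alone). DPYSL2, a gene of axon guidance, and ONECUT2, a transcription factor gene of neuroendocrine prostate cancer, had 0.94 and 0.597. Of these, INSM1 alone was above both single treatments. The summed level of the 22 neuroendocrine markers was 611 and 640.2 CPM in control, 233.0 and 233.1 with DHT, 703 and 695 with enzalutamide and 345 and 329.6 with the combination, so the combination sum lay between the single treatments.

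Among receptor partners and stress genes, interactions were called in both directions in most lists. Of 28 genes of the androgen receptor and its coregulators, 5 interactions were higher and 6 lower. PIAS1, a SUMO ligase gene, had 70.1 and 72.6 CPM in control, 119 and 118 with DHT, 70.9 and 68.7 with enzalutamide and 71.2 and 67.6 with the combination. DHT alone was high and the other groups overlapped, at an interaction of -0.74 (SE 0.11, adjusted p = 2.3e-08). GATA2, a pioneer factor gene of prostate enhancers, had 0.47 (SE 0.071, adjusted p = 4.0e-08). Of 16 aryl hydrocarbon and xenobiotic genes 2 were lower, among them TIPARP, a mono-ADP-ribosyltransferase gene, at -1.84. That 2 was 1 without replicate 1 of DHT or of the combination or replicate 2 of control or of enzalutamide. Of 22 genes of p53 targets and apoptosis 4 were lower, including CDKN1A, the cyclin-dependent kinase inhibitor p21, at -0.95, and GDF15, a secreted stress cytokine gene, at -0.56. That 4 was 2 without replicate 1 of enzalutamide. Another 2 were higher, TP53INP1 and the death receptor gene FAS, at 0.83 and 1.096. Of 23 hypoxia and glycolysis genes 6 were lower and 2 higher, including PDK1, a kinase that restrains pyruvate oxidation, at 0.88. Of 20 immediate-early and ERK feedback genes 3 were lower and 2 higher, with EGR1 and SPRY4 on opposite sides. The 2 higher became 1 without any 1 Vc library other than replicate 2 of the combination, and with DESeq2, its size factors, no filter or a replicate block.

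In each of the remaining lists at most 4 genes were called in either direction, and most of these counts moved when 1 library was left out. Of 15 androgen metabolism genes 3 interactions were higher, including UGT2B15, and 4 lower. That 4 was 1 with DESeq2 or without replicate 2 of DHT, control or the combination, and 2 without the filter or either enzalutamide library. Oxidative stress genes of NRF2 had 3 of 20 higher and 3 lower, heat shock genes 2 of 14 higher and 3 lower, and interferon response genes 0 of 19 higher and 1 lower. The NRF2 count lower was 0 without replicate 1 of DHT or of the combination and 1 without replicate 2 of control or replicate 1 of enzalutamide, and its count higher was 1 without replicate 2 of the combination. The heat shock count lower was 0 without replicate 1 of DHT and 1 without either combination library, replicate 1 of control or replicate 1 of enzalutamide, and its count higher was 1 without replicate 2 of DHT, replicate 1 of control or replicate 2 of enzalutamide. The interferon call was lost without replicate 1 of DHT, the combination or control or replicate 2 of enzalutamide. None of 13 mitochondrially encoded, 8 basal epithelial or 3 immune marker genes was called. Of 9 stromal and endothelial markers tested, LUM was the 1 called, and their median was 1.29, or 0.44 with members that have a group without counts set to the floor of 3 counts.

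**Figure D5:**
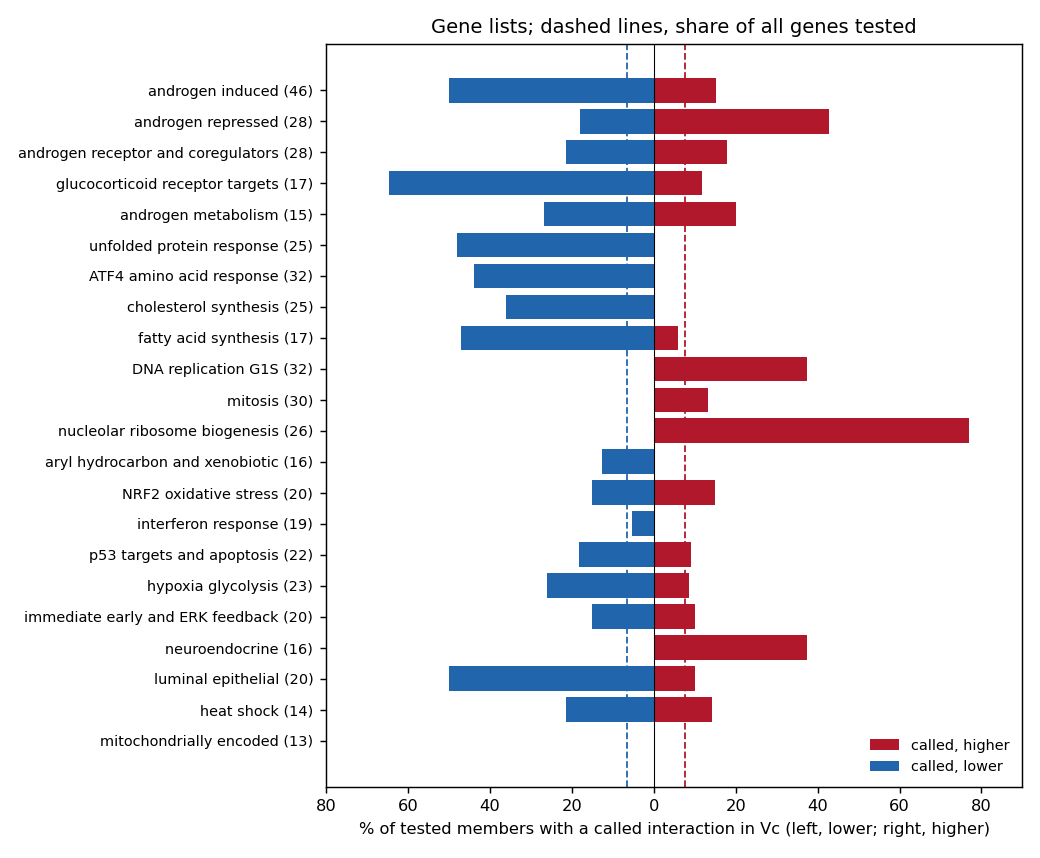
Bars give, for each list with at least 10 tested members (number in brackets), the percentage of members with a called interaction in Vc on the x axis, lower to the left and higher to the right. Dashed lines mark 6.42% and 7.53% of all genes tested, not matched for expression level: the nucleolar list (76.9% higher) and the glucocorticoid receptor targets (64.7% lower) reach farthest.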

How the data were processed

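The authors deposited, for each library, read counts per gene, and 1 table of a normalized signal per gene. The signal equalled the counts divided by size factors within 0.1% and served only to name genes. Reads were handled with FastQC 0.11.7, Trimmomatic 0.36-5, HISAT2, SAMtools and HTSeq 0.11.1 on GRCh38, per the submitters' processing notes, and the count file names give unstranded union counting. The 5 summary lines per file were set aside (reads in no gene, 46.9 to 50.6% in Vc). Positions came from GENCODE release 29 and promoters from RefSeq.

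Counts were fitted with edgeR 4.0.16 in R 4.3.3: TMM, filterByExpr by group, robust quasi-likelihood over all 16 libraries in 8 groups (8 residual degrees of freedom), two-sided F tests and Benjamini-Hochberg adjustment over 22553 genes. All adjusted p-values are from it unless another tool is named. The CPM-scale calls used a t test on the group means of this fit, with the same adjustment. The script was tested on simulated data. The SE is the Wald standard error, and the 95% interval follows from it. Replicate libraries of each group differed beyond sampling noise (chi-square per degree of freedom 2.45 to 3.65).

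The members, the 25 gene lists and the naming rule were chosen with earlier results of these data known. The rule takes anchor genes, the 10 called genes with the most positive and most negative interaction and the 10 farthest above and below both single treatments (mean of at least 5 CPM), the 3 leading members of each list, the 6 largest responses of kept size and the 3 largest differences between lines in each direction. The text names a part, and some genes of the rule are not reported here. Alternatives were DESeq2 1.42.0 and its size factors, no filter, the Vc libraries alone, a replicate block, the CPM scale, a 2-fold minimum and leaving out each Vc library.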

Additional observations from a re-analysis of the deposited data

Results flagged for a closer look

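The interaction differed between Ver and Vc, by a test of the difference itself, for 14 of the genes named. Each value is the log2 interaction in Ver minus that in Vc. The difference was positive for MGP (2.15), MATK (1.76), SCUBE2 (1.59), ABCC3 (0.91), TRPM8 (0.82) and SLC45A3 (0.42). It was negative for NMNAT2 (-2.38), CCNA2 (-2.13), CYP1A1 (-1.18), AC098617.1 (-1.04), FKBP5 (-0.95), HPGD (-0.53) and LIFR (-0.51). For NOV the fitted value was -5.69, which is no bound, since the Vc DHT libraries hold no count of it.

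MGP, which encodes an inhibitor of calcification, was as low with the combination (3.61 and 4.32 CPM) as with DHT alone (3.45 and 3.76) in Vc, whereas in Ver it was at 3.66 and 1.79 with the combination against 0.624 and 0.738 with DHT. CCNA2, the cyclin A2 gene, was at 4.9 and 6.08 CPM with the combination and 3.45 and 1.93 with DHT in Vc, against 3.45 and 3.68 and 2.5 and 4.52 in Ver. The calls of FKBP5, SCUBE2, ABCC3 and NMNAT2 held with DESeq2's size factors in edgeR, no filter, a replicate block and each Vc library left out. DESeq2 itself called FKBP5 and gave no adjusted p for the other 3. In those edgeR fits the call of TRPM8 was lost only without replicate 2 of Vc enzalutamide (0.76, adjusted p = 0.058). Each of the other 9 was lost without at least 1 Vc library.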

How the results depend on the processing

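Of 129 results for single genes, 101 kept direction and side of the threshold under each of the 13 alternatives that gave an adjusted p. The 3147 non-additive genes became 799 with a 2-fold minimum (552 higher, 247 lower), and 1130 were higher on the CPM scale. Leaving out each Vc library gave 2450 to 2667. The 311 genes outside the range became 218 with DESeq2 and 211 to 302 without each library, and the 172 of kept size 133 to 166. The 144 differences between Ver and Vc became 91 without the low-count filter, 155 with DESeq2 (which gave an adjusted p to 2003 genes) and 42 to 144 without each library: 78 and 74 without replicate 1 and 2 of DHT, 51 without replicate 1 of the combination, 47 without replicate 1 of control and 42 without replicate 2 of enzalutamide. The cause was not tested. Among signs, the interaction of KLK3 ranged from -0.26 to 0.041 without each library, above 0 only without replicate 1 of enzalutamide. That of MGP in Vc ranged from -0.11 to 0.14, and was below 0 without replicate 1 of DHT, control or enzalutamide (-0.049, -0.077 and -0.0086) and replicate 2 of the combination. Neither interaction was called.

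Over all genes tested, samples with the same number did not deviate together (correlations of -0.023 to 0.028). Counting noise of genes at low counts enters these correlations, so they cannot show whether the numbers pair samples. With a replicate block, 3196 genes were non-additive, 317 outside the range, 177 different between the lines and 181 of kept size. With 2 libraries a group at 1 dose, small departures at low counts could not be resolved.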

Other observations

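Of markers of other cell types, the immune list was low in all Vc libraries. Of its 12 genes 4 had no count in any, and the sum was 7.37 and 6.02 CPM in control, 6.94 and 8.96 with DHT, 6.11 and 6.07 with enzalutamide and 7.52 and 7.20 with the combination. Basal epithelial markers summed to 315 and 325 CPM in control, 259 and 255 with DHT, 328 and 332 with enzalutamide and 272 and 251 with the combination.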
